A study of Homo sapiens with 12 samples.

Results

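Hep3B and Huh7 are human hepatocellular carcinoma cell lines, and the comparison described here sets untreated Hep3B against untreated Huh7, before any drug. Expression was measured by mRNA sequencing and deposited as TPM, a unit of transcript abundance that corrects for gene length and sums to the same total in every library. Genes with at least 1 TPM in at least 2 of the 4 untreated libraries were used, which kept 12926 of the 20307 genes in the table. Untreated Hep3B and untreated Huh7 have 2 libraries each, named A1 and B1 and labelled control, out of 12 libraries in the study. The other libraries are Hep3B exposed to 20 µM lenvatinib, to 20 µM WWL70 or to 20 µM WWL70 with lenvatinib (its dose there is unlabelled), and Huh7 labelled as resistant to lenvatinib, each with 2 libraries. Lenvatinib is a multikinase inhibitor given for liver cancer, and WWL70 inhibits the lipase ABHD6. The 6 drug-exposed Hep3B libraries and both resistant Huh7 libraries were used only to see which differences between the lines held outside the untreated cultures.

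Each line was grown from 1 tumour, so the comparison is of 2 cell lines and not of 2 classes of tumour. The labels do not say that A1 and B1 were separate cultures, so every p-value measures the spread between these libraries, which may be technical. In bulk RNA, fewer cells of a type and less RNA per cell cannot be told apart. The sequencing depth behind a TPM value is unknown. The untreated libraries were alike within a line, with a Pearson correlation over the tested genes on the log2(TPM + 1) scale of 0.993 between the Hep3B libraries and 0.993 between the Huh7 libraries, against 0.825 to 0.828 between the lines. The median TPM of a library was 6.69 and 6.53 in untreated Hep3B and 4.79 and 4.999 in untreated Huh7, and mitochondrially encoded genes took 15.9% and 16.5% of the Hep3B total and 16.2% and 17.2% of the Huh7 total.

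Hepatocytes make most plasma proteins, clear nitrogen through the urea cycle, build lipoproteins and detoxify drugs, and tumours derived from them keep these functions unevenly. Hepatocellular carcinoma also switches on fetal liver genes, among them alpha-fetoprotein. Hep3B is known as a line without functional RB, a tumour suppressor of the cell cycle. Cells under amino acid or mitochondrial stress switch on genes through the transcription factor ATF4, while NRF2 drives antioxidant enzymes and the metal sensor MTF1 drives metallothioneins.

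Of the 12926 genes tested with limma, 3714 (28.7%) were past the threshold, which was a Benjamini-Hochberg adjusted p under 0.05 with a log2 fold change of at least 1 in either direction. Hep3B was the higher line for 2379 of them (18.4% of the genes tested) and the lower line for 1335 (10.3%). Fold changes are Hep3B over Huh7 on the log2(TPM + 1) scale, on which weakly expressed genes appear to change less than they do. The median over all tested genes was 0.17 on that scale, and a scaling that brings this median to 0.00 split the genes past the threshold almost evenly, with 1952 higher and 1697 lower in Hep3B. An adjusted p under 0.05 at any fold was reached by 9312 genes (72%), and the Hep3B and Huh7 libraries did not overlap for 11145 genes (86.2%). The filter itself shaped part of the counts. Of 703 genes that passed it through both Hep3B libraries and neither Huh7 library, 592 were past the threshold, and of 511 that passed through Huh7 alone, 442 were. Among the 11280 genes at 1 TPM or more in all 4 libraries, 14.8% were higher and 7.42% were lower in Hep3B.

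**Figure D1:**
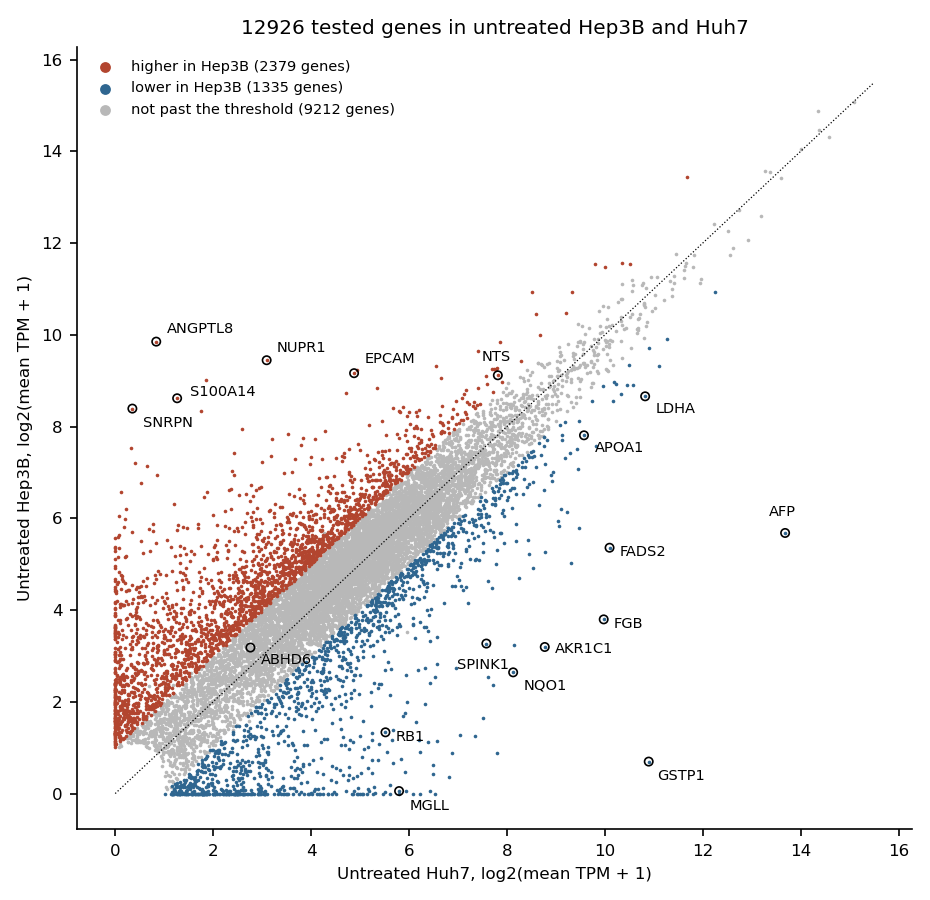
Each point is 1 of the 12926 tested genes, placed by its mean over both untreated Hep3B libraries (vertical) and both untreated Huh7 libraries (horizontal), as log2(mean TPM + 1), with the dotted line marking equal levels. The 2379 genes higher in Hep3B are red, the 1335 lower in Hep3B are blue, and circles mark named genes: ANGPTL8 and GSTP1 lie farthest from the line, while ABHD6 lies close to it.

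Both lines carried the marks of hepatocytes. Albumin, the main plasma protein, had 12495 and 11661 TPM in Hep3B and 10323 and 10971 TPM in Huh7, a log2 fold change of 0.18. HNF4A, the master transcription factor of the hepatocyte, had 136 and 130.4 TPM in Hep3B and 129.04 and 129 TPM in Huh7. Among 28 tested hepatic transcription factors, 22 were not past the threshold and 21.4% were, against 28.7% of all genes. Of the 28, 3 were higher and 3 lower in Hep3B. The exceptions included the bile acid receptor FXR (NR1H4), with 51.7 and 50.8 TPM in Hep3B and 212 and 208 TPM in Huh7. SHP (NR0B2), a repressor that FXR induces in liver, stood on the other side, with 46.6 and 57.2 TPM in Hep3B and 6.16 and 7.70 TPM in Huh7. CREB3L3, a liver factor of lipid metabolism and the acute phase, was at 4.73 and 5.29 TPM in Hep3B and 57.2 and 63.3 TPM in Huh7. Most markers of other cell types did not pass the filter on low values. Of the fibroblast and stellate list 6 of 14 genes passed the filter, of the leukocyte list 5 of 13, and of the endothelial and erythroid lists 1 of 13 each. The summed leukocyte list was lower in Hep3B, at 134 and 157 TPM against 562 and 536 TPM in Huh7, and of its tested genes 2 were higher and 2 lower in Hep3B. Lysozyme (LYZ), which made up most of the sum in Huh7, had 53.6 and 59.0 TPM in Hep3B and 549 and 516 TPM in Huh7. The macrophage marker CD68 went the other way, with 69.9 and 87.0 TPM in Hep3B and 6.27 and 10.8 TPM in Huh7 (log2 fold change 3.09). CD3D, a T cell marker, was listed at 0 in both Hep3B libraries and at 3.83 and 5.62 TPM in Huh7, and 3 genes of the list were at 0 in all 4 libraries. The part of other cells in the results was not tested.

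For the 4 genes given as marking the comparison the untreated Hep3B and Huh7 libraries did not overlap, as was so for 86.2% of all tested genes. LDHA, which turns pyruvate into lactate, had 419 and 388 TPM in Hep3B and 1718.5 and 1905 TPM in Huh7, a log2 fold change of -2.16 ± 0.07 (SE; adjusted p = 5.17e-06). APOA1, the main protein of high-density lipoprotein, had 224 and 222 TPM in Hep3B and 724 and 799 TPM in Huh7 (log2 fold change -1.76 ± 0.06). Neurotensin (NTS), a gut peptide hormone, was the only marker on the other side, with 601 and 509 TPM in Hep3B and 247 and 201.01 TPM in Huh7 (log2 fold change 1.31 ± 0.12). The trypsin inhibitor SPINK1 had 8.02 and 9.26 TPM in Hep3B and 209 and 172 TPM in Huh7 (log2 fold change -4.31 ± 0.12). LDHA, NTS and SPINK1 stayed apart in the same direction between the exposed Hep3B and the resistant Huh7 libraries, but APOA1 did not, since it ranged from 201.2 to 10617 TPM over the exposed Hep3B libraries, against 5259 and 3111 TPM in resistant Huh7.

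RB1, the tumour suppressor that holds back entry into the cell cycle, had 1.37 and 1.67 TPM in Hep3B and 45.7 and 44.0 TPM in Huh7, a log2 fold change of -4.19 ± 0.13. Cell cycle regulators divided in both directions, with 9 of 22 higher and 6 lower in Hep3B. The CDK inhibitor CDKN1C (p57), an imprinted gene, had 85.5 and 72.4 TPM in Hep3B and 1.504 and 1.07 TPM in Huh7, a log2 fold change of 5.13. The neighbouring CDK inhibitor genes CDKN2A and CDKN2B, named here after their values were seen, were higher in Hep3B by 2.15 and 2.09 on the log2 scale. MYCN, a MYC family oncogene of embryonic and neural tissue, was listed at 0.399 and 0.186 TPM in Hep3B and 109 and 114 TPM in Huh7, whereas MYC, also named after its values were seen, averaged 114 TPM in Hep3B and 39.1 TPM in Huh7. Cyclin D1 (CCND1), which drives CDK4 and CDK6 against RB, was at 33.1 and 33.7 TPM in Hep3B and 171 and 159 TPM in Huh7. Of 32 replication and mitosis genes, 15.6% were past the threshold, against 28.7% of all genes. In Hep3B 5 of the 32 were lower, or 3 to 10 across the fits tried, and none was higher under any fit. The ribonucleotide reductase subunit RRM2 was the largest of these, with 56.3 and 49.2 TPM in Hep3B and 207 and 194 TPM in Huh7.

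GSTP1 and ANGPTL8, close to silent in 1 line each, and AFP were among the largest single differences. GSTP1, a glutathione transferase that adult hepatocytes do not normally express, had 0.603 and 0.638 TPM in Hep3B and 1941 and 1871 TPM in Huh7, a log2 fold change of -10.20 ± 0.07 (adjusted p = 1.1e-07). Alpha-fetoprotein (AFP), the fetal counterpart of albumin, had 53.8 and 46.8 TPM in Hep3B and 13104 and 13199.6 TPM in Huh7, a log2 fold change of -8.01 ± 0.07, so that it was more abundant than albumin in Huh7 and far below it in Hep3B. Hep3B is known as a line that secretes alpha-fetoprotein, which the low level in the libraries labelled Hep3B does not match. ANGPTL8, a feeding-induced liver hormone that restrains lipoprotein lipase, lay at the opposite end, with 881 and 965 TPM in Hep3B and 0.546 and 1.03 TPM in Huh7 (log2 fold change 9.03 ± 0.14). For these 3 genes the exposed Hep3B and resistant Huh7 libraries were apart in the same direction.

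Other genes near the top of the Hep3B side were SNRPN, an imprinted splicing gene (346 and 324 TPM in Hep3B and 0.287 and 0.262 TPM in Huh7), and S100A14, an epithelial calcium-binding protein (397 and 386 TPM in Hep3B and 1.47 and 1.34 TPM in Huh7). The actin-binding peptide TMSB4X (536 and 501 TPM in Hep3B and 2.95 and 2.30 TPM in Huh7), the secreted protein LGALS3BP (325 and 325 TPM in Hep3B and 2.50 and 2.20 TPM in Huh7) and the lipid-mobilizing plasma protein AZGP1 (143 and 151 TPM in Hep3B and 0.119 and 0.542 TPM in Huh7) followed. MAGED1, PTGDS, ADGRG1 and CRIP2 completed this group with log2 fold changes from 6.10 to 7.21, beside ESRP1 and NUPR1, which are described with their lists. On the Huh7 side the cartilage collagen COL2A1 had 0.854 and 0.841 TPM in Hep3B and 225 and 218 TPM in Huh7. The interferon-induced GTPase MX2 was listed at 0 in both Hep3B libraries and at 90.2 and 94.2 TPM in Huh7, and the bromodomain gene BRDT, normally confined to the testis, at 0 in both Hep3B libraries and at 63.7 and 70.5 TPM in Huh7. ARSL and GTSF1 were likewise at or near 0 in Hep3B, with GTSF1, a piRNA pathway gene, at 78.5 and 69.4 TPM in Huh7.

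A stricter on and off rule, under 0.5 TPM in both libraries of 1 line and at least 10 TPM in both libraries of the other, found 88 genes on in Hep3B and 70 on in Huh7. In the exposed Hep3B and resistant Huh7 libraries 86 of the 88 and 70 of the 70 lay apart on the same side, an order seen for 20.6% (Hep3B higher) and 20.1% (Hep3B lower) of all tested genes. The genes on in Hep3B included the growth factor EREG (47.7 and 44.7 TPM, listed at 0 in both Huh7 libraries) and HLA-B. Those on in Huh7 included the haem scavenger haptoglobin (HP, 0.444 and 0.255 TPM in Hep3B and 85.5 and 91.5 TPM in Huh7) and the monoglyceride lipase MGLL.

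**Figure D2:**
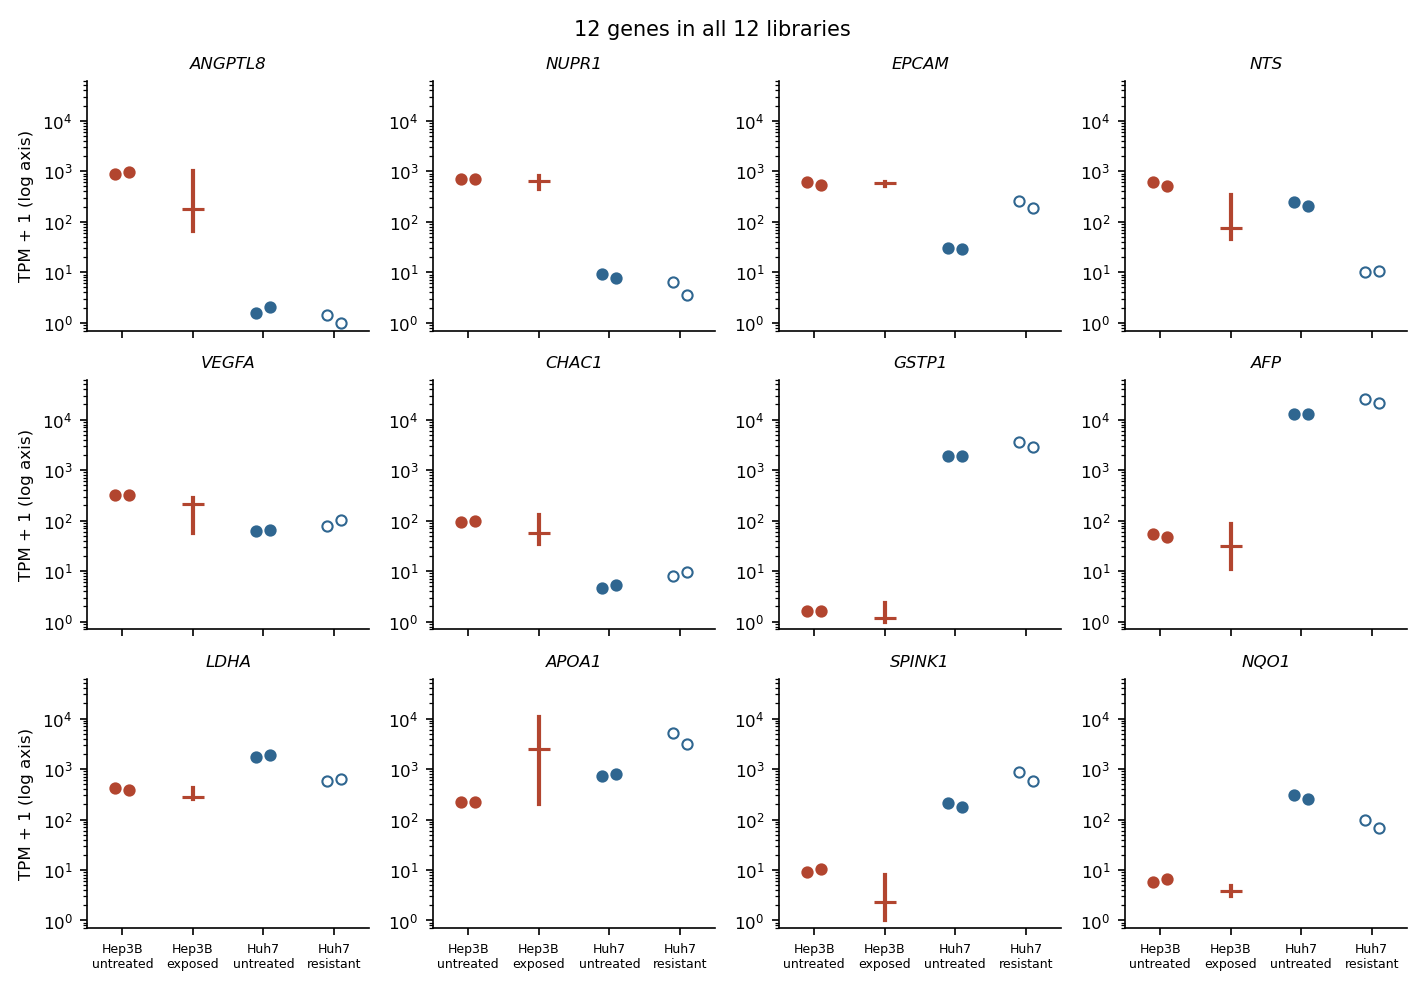
TPM + 1 on a log axis of 12 genes in all 12 libraries, with 1 panel per gene. Filled points are the untreated libraries A1 and B1 (Hep3B red, Huh7 blue), open points are the resistant Huh7 libraries, and the red bar spans the 6 drug-exposed Hep3B libraries with a tick at their median; GSTP1, AFP and ANGPTL8 keep the lines apart in all groups, while APOA1 of exposed Hep3B reaches 10617 TPM, above both Huh7 groups.

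Secreted liver proteins split by system. Of 22 tested coagulation genes 13 were lower and 2 higher in Hep3B, with a list median of -1.05 against 0.17 over all genes, and 3 of the 22 had passed the filter through Huh7 alone. Antithrombin (SERPINC1), the main inhibitor of thrombin, had 0.480 and 1.22 TPM in Hep3B and 102 and 132 TPM in Huh7. Plasminogen (PLG), the precursor of the clot-dissolving enzyme, had 0.448 and 0.538 TPM in Hep3B and 20.4 and 32.7 TPM in Huh7. Factor VII (F7) and factor X (F10), named after their values were seen, were the 2 higher in Hep3B, by 2.23 and 1.07 on the log2 scale. Acute phase genes had 6 of 15 lower and 3 higher, with the fibrinogen chain FGB at 13.5 and 12.2 TPM in Hep3B and 1066.5 and 948 TPM in Huh7, while SERPINA3, a protease inhibitor of the acute phase, had 53.9 and 59.2 TPM in Hep3B and 4.33 and 2.11 TPM in Huh7.

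Complement genes lay mostly on the other side, with 14 of 26 higher and 6 lower in Hep3B and a list median of 1.27. C8G, a chain of the membrane attack complex, had 30.3 and 38.6 TPM in Hep3B and 0 and 0.298 TPM in Huh7. The lectin MBL2, which starts the lectin pathway, was among those lower in Hep3B, with 0.878 and 1.81 TPM in Hep3B and 22.8 and 25.3 TPM in Huh7. C4A and C4B, near-identical copies whose reads could be split by the counting, are uncertain as separate genes.

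Among apolipoproteins and lipoprotein assembly genes, 8 of 19 were lower and 4 higher in Hep3B. APOH, a phospholipid-binding plasma protein, had 828 and 781 TPM in Hep3B and 173 and 167 TPM in Huh7. The cholesterol synthesis list, whose genes are controlled by SREBP2, had 9 of 23 genes lower and 1 higher in Hep3B and a median of -0.74. The sterol sensor INSIG1 had 35.1 and 31.5 TPM in Hep3B and 151 and 173 TPM in Huh7, and the sterol isomerase EBP had 98.0 and 95.5 TPM in Hep3B and 435 and 427 TPM in Huh7. TM7SF2, a sterol reductase, was the exception, with 126 and 116 TPM in Hep3B and 34.7 and 37.2 TPM in Huh7. In fatty acid synthesis the largest difference was FADS2, the desaturase that starts polyunsaturated fatty acid synthesis, with 40.2 and 39.8 TPM in Hep3B and 1087 and 1102 TPM in Huh7 (log2 fold change -4.74 ± 0.05). The carbohydrate-response factor ChREBP (MLXIPL) ran the other way, with 95.2 and 103 TPM in Hep3B and 10.6 and 14.4 TPM in Huh7, as did the lipid droplet gene PLIN4, with 41.7 and 42.3 TPM in Hep3B and 2.84 and 3.41 TPM in Huh7.

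Nitrogen metabolism was divided between the lines. Arginase (ARG1), the last step of the urea cycle, had 1.24 and 1.52 TPM in Hep3B and 137 and 188 TPM in Huh7. Argininosuccinate synthase (ASS1), an earlier step of the same cycle, had 449 and 469 TPM in Hep3B and 37.2 and 42.7 TPM in Huh7. GATM, which makes the precursor of creatine, had 1.57 and 0.154 TPM in Hep3B and 71.1 and 77.1 TPM in Huh7. Over the whole list 8 of 35 genes were higher and 10 lower in Hep3B. Bile acid genes were similarly mixed (6 of 19 higher and 8 lower), with the efflux pump ABCC3 at 66.1 and 71.9 TPM in Hep3B and 5.99 and 6.17 TPM in Huh7, and the transporter subunit SLC51A at 0.430 and 0.425 TPM in Hep3B and 11.4 and 12.3 TPM in Huh7. Of the oncofetal list 6 of 17 genes were lower and 3 higher, and beside AFP and SPINK1 the Golgi protein GOLM1 stood out, with 6.26 and 5.05 TPM in Hep3B and 127 and 119 TPM in Huh7.

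**Figure D3:**
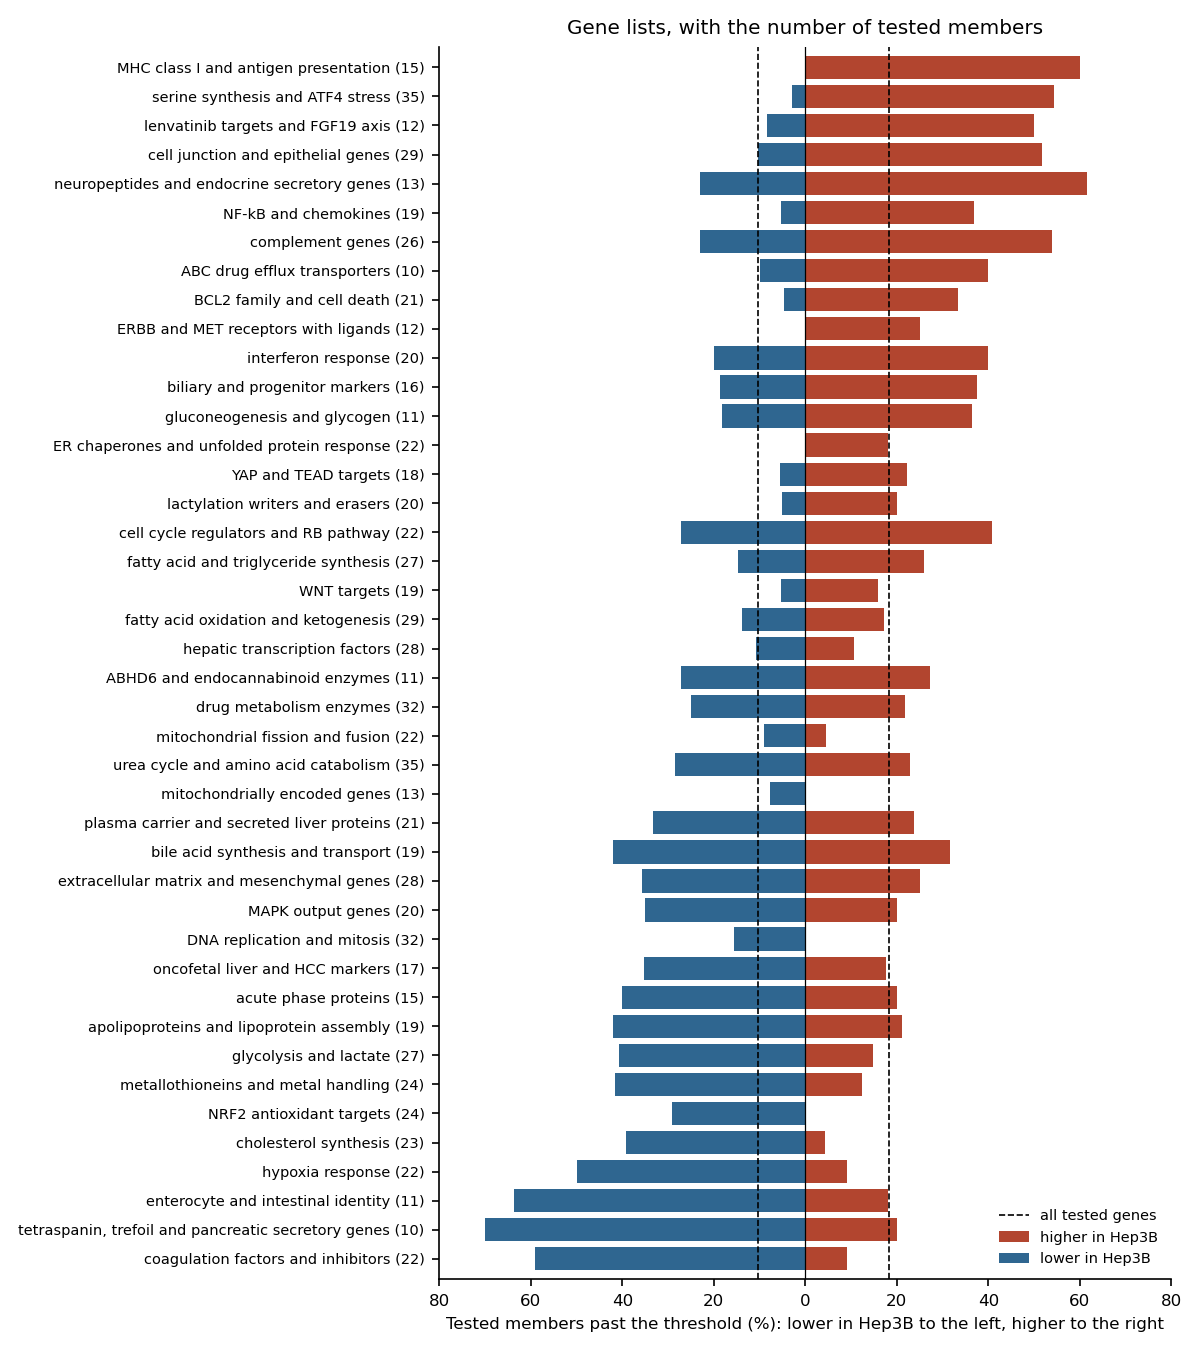
For gene lists with at least 10 tested members, the bars give the percentage of tested members higher (red, right) and lower (blue, left) in Hep3B past the threshold, and the dashed lines give 18.4% and 10.3%, the shares of all tested genes. The MHC class I, ATF4, junction and complement lists have red bars well past the right dashed line, and the coagulation, hypoxia, cholesterol and glycolysis lists have blue bars well past the left one.

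Of 27 glycolysis and lactate genes, 11 were lower in Hep3B, 4 were higher and 12 did not pass the threshold, with a median of -0.70. The glucose transporter SLC2A1 (GLUT1) had 6.54 and 5.58 TPM in Hep3B and 93.2 and 96.1 TPM in Huh7, and the aldolase ALDOC had 3.34 and 5.23 TPM in Hep3B and 77.8 and 93.5 TPM in Huh7. The liver isoform of pyruvate kinase, PKLR, was among the 4 higher genes, with 63.8 and 68.4 TPM in Hep3B and 1.73 and 4.31 TPM in Huh7. Hypoxia response genes, 3 of which are also on the glycolysis list (LDHA, PDK1 and SLC2A1), had 11 of 22 lower and 2 higher in Hep3B. Erythropoietin (EPO), the hypoxia-induced hormone of kidney and fetal liver that drives red cell production, was listed at 0 in both Hep3B libraries and at 5.67 and 8.94 TPM in Huh7. The 2 higher in Hep3B were carbonic anhydrase CA9, with 11.5 and 10.2 TPM in Hep3B and 0 and 0.192 TPM in Huh7, and VEGFA. Of 20 genes proposed to write or erase protein lactylation, 4 were higher and 1 lower in Hep3B, or 25% past the threshold against 28.7% of all genes. The acetyltransferase KAT5 (65.0 and 65.4 TPM in Hep3B and 24.6 and 24.7 TPM in Huh7) and the mitochondrial deacylase SIRT3 (26.1 and 32.0 TPM in Hep3B and 10.3 and 13.4 TPM in Huh7) were among them.

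The serine synthesis and ATF4 stress list had 19 of 35 genes higher and 1 lower in Hep3B, with a median of 1.09. NUPR1, a stress-induced chromatin protein, had 691 and 703 TPM in Hep3B and 8.28 and 6.79 TPM in Huh7, a log2 fold change of 6.36 ± 0.09. CHAC1, which degrades glutathione, had 94.9 and 98.2 TPM in Hep3B and 3.64 and 4.38 TPM in Huh7 (log2 fold change 4.29 ± 0.11), and the stress cytokine GDF15 had 154 and 169 TPM in Hep3B and 25.1 and 23.9 TPM in Huh7. Genes of the list named after their values were seen included the stress factor DDIT3 (CHOP), higher by 2.46, and asparagine synthetase (ASNS), higher by 1.78, while ATF4 itself differed by 0.53 and was not past the fold limit. The endoplasmic reticulum chaperone list, read out by a different branch of the stress response, had a median of -0.05. Past the threshold were 18.2% of its genes, against 28.7% of all genes, with 4 of 22 higher. Those included the sensors ERN1 (19.3 and 18.3 TPM in Hep3B and 4.50 and 4.39 TPM in Huh7) and ATF6 (75.2 and 74.7 TPM in Hep3B and 27.5 and 29.4 TPM in Huh7), and the chaperone HSPA5, named after its values were seen, differed by -0.07.

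The promoters of the ATF4 list were looked at because ATF4 binds with C/EBP partners to a composite element. The 8 letters TGATGNAA were searched on both strands in the 250 bases before each gene's start (RefSeq, GRCh38.p14). They were present in 8 of the 30 list members with a window (26.7%), ATF3, CHAC1, ASNS, SLC1A5, CEBPG, FGF21, AARS1 and GARS1, against 252 of the 10433 tested genes with a window (2.42%). The list was put together from ATF4 stress and serine synthesis genes, so this share describes the list and not the difference between the lines. CHAC1 and ASNS are shown because they carry the letters and were higher in Hep3B, and ANGPTL8 because it is the gene farthest to the Hep3B side and holds them too. Each sequence is written 5′ to 3′ on the gene's strand and ends at the base before the start, with the match in capitals. The windows are chr15:40953221-40953470 (plus strand) for CHAC1, chr7:97872409-97872658 (minus strand) for ASNS and chr19:11239369-11239618 (plus strand) for ANGPTL8.
CHAC1: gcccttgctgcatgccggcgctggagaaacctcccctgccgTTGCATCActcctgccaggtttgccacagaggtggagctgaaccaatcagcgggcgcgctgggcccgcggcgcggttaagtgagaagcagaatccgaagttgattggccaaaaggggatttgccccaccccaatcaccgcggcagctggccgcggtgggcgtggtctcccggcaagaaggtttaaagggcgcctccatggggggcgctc
ASNS: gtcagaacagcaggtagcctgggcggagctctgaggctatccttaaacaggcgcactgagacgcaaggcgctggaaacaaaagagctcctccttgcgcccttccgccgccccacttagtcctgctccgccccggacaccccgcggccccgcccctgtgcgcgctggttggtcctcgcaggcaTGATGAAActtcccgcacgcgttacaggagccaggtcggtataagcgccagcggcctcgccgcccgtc
ANGPTL8: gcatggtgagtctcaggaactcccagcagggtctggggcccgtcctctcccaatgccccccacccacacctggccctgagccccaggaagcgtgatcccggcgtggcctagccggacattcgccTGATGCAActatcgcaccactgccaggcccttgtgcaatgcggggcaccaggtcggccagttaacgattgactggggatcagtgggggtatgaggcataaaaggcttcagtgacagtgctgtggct
The match starts 209 bases before the start of CHAC1, where it reads on the opposite strand, 68 before that of ASNS and 126 before that of ANGPTL8. A match describes the letters only and is no evidence that a factor binds there.

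NRF2 antioxidant targets had 7 of 24 genes lower in Hep3B and none higher under any fit, with a median of -0.75. The other 17 were not past the threshold. The share past it was 29.2%, close to the 28.7% of all genes, of which 10.3% were lower and 18.4% higher. The quinone reductase NQO1 had 4.85 and 5.63 TPM in Hep3B and 305 and 252 TPM in Huh7, a log2 fold change of -5.48 ± 0.12. The aldo-keto reductase AKR1C1 had 6.79 and 9.52 TPM in Hep3B and 430.02 and 443 TPM in Huh7, and its near-identical neighbour AKR1C2 had 1.17 and 1.25 TPM in Hep3B and 102 and 86.0 TPM in Huh7, so the split of reads between these 2 is uncertain. Other members of the list, among them HMOX1 and the cystine carrier SLC7A11 (both named after their values were seen), differed by -0.33 and 0.25. Of drug metabolism enzymes, 7 of 32 were higher and 8 lower in Hep3B, or 46.9% past the threshold against 28.7% of all genes. Of these 32, 3 had passed the filter through Hep3B alone and 8 through Huh7 alone, which raises that share. GSTM1, a transferase commonly deleted in human genomes, had 0.036 and 0 TPM in Hep3B and 43.4 and 45.4 TPM in Huh7.

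The metallothioneins are small cysteine-rich proteins that bind zinc and copper. All 8 tested metallothionein genes were lower in Hep3B, although most of them passed the filter through Huh7 alone. MT2A had 3.71 and 5.89 TPM in Hep3B and 240 and 150 TPM in Huh7, MT1E had 0.779 and 0 TPM in Hep3B and 78.6 and 40.7 TPM in Huh7, and MT1F was listed at 0 in both Hep3B libraries and at 48.0 and 26.8 TPM in Huh7. Untreated Huh7 was higher in both libraries for each of these 3 genes. MT1 genes are near-identical copies, so their separate values are uncertain.

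The promoters of GSTP1 and of the metallothioneins are shown because these genes had far less mRNA in Hep3B. The letters searched were TGACNNNGC, the antioxidant response element, and TGCACNC or TGCGCNC, the metal response element, on both strands. The first was found in 6 of 20 NRF2 list members with a window (30%) and in 15.9% of all 10433 windows, and the second in all 3 metallothionein genes with a window and in 40% of all windows. The 6 were GCLM, TXNRD1, PGD, ME1, KEAP1 and GPX2, so NQO1, AKR1C1 and AKR1C2 were not among them. These shares describe the lists and not the difference between the lines. The GSTP1 window (chr11:67583562-67583811, plus strand) holds 28 CpG pairs, a number that 32.5% of the tested genes with a window reach. The MT2A window (chr16:56608334-56608583, plus strand) holds 7 matches that include both strands, the MT1X window (chr16:56682220-56682469, plus strand) 4.
GSTP1: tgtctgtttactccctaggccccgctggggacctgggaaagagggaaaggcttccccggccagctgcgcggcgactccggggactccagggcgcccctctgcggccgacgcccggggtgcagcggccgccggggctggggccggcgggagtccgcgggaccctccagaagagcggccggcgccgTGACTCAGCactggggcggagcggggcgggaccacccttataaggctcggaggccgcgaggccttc
MT2A: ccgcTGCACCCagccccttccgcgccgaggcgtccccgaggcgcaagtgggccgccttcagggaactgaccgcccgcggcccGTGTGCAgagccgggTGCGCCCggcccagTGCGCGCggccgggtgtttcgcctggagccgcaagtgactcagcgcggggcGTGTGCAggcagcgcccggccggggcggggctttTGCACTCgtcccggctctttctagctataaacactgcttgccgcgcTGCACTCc
MT1X: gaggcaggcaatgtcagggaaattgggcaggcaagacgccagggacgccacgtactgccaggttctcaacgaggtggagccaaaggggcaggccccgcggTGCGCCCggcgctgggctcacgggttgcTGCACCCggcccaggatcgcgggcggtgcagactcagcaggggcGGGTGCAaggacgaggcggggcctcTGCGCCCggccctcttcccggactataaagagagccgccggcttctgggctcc
In GSTP1 the match starts 66 bases before the start. In MT2A and MT1X the matches nearest the start begin 8 and 53 bases before it.

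Epithelial junction genes were higher in Hep3B for 15 of 29 and lower for 3, with a median of 1.003. ESRP1, a splicing factor of epithelial cells, had 142 and 138 TPM in Hep3B and 0.504 and 0.613 TPM in Huh7. The adhesion molecule EPCAM, a marker of liver progenitors, had 608 and 537 TPM in Hep3B and 28.8 and 28.0 TPM in Huh7 (log2 fold change 4.28 ± 0.07), and the progenitor keratin KRT23 had 106 and 90.9 TPM in Hep3B and 4.46 and 3.77 TPM in Huh7. Claudin CLDN6 and the intestinal cadherin CDH17 were on in Huh7, with CDH17 listed at 0 in both Hep3B libraries and at 36.2 and 32.1 TPM in Huh7. CDH17 is on the enterocyte list, of which 7 of 11 tested genes were lower and 2 higher in Hep3B. Of these 11, 6 had passed the filter through Huh7 alone. The summed list went the other way, at 866.1 and 859.5 TPM in Hep3B and 500.2 and 514.3 TPM in Huh7. The intestinal factor CDX2, also on that list and a regulator of CDH17 in gut, had 0.691 and 0.320 TPM in Hep3B and 12.8 and 13.6 TPM in Huh7. Osteopontin (SPP1) was also on the Huh7 side, with 0.645 and 0 TPM in Hep3B and 23.97 and 24.5 TPM in Huh7. The tetraspanin relative TM4SF4 was far higher in Hep3B, with 615 and 591 TPM against 30.5 and 28.5 TPM in Huh7.

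Matrix genes went both ways, with 7 of 28 higher and 10 lower in Hep3B, or 60.7% past the threshold against 28.7% of all genes. Of these 28, 2 had passed the filter through Hep3B alone and 4 through Huh7 alone. Thrombospondin THBS1 had 162 and 135 TPM in Hep3B and 8.43 and 5.59 TPM in Huh7, while the collagen COL6A1 had 0.567 and 0.487 TPM in Hep3B and 18.97 and 22.0 TPM in Huh7. Of the YAP and TEAD target list 4 of 18 were higher and 1 lower, or 27.8% past the threshold against 28.7% of all genes. IGFBP3 had 169 and 174 TPM in Hep3B and 5.19 and 3.48 TPM in Huh7. Its exposed Hep3B libraries (25.2 to 107 TPM) and resistant Huh7 libraries (38.3 and 30.9 TPM) overlapped. ANKRD1, on the same list, had 48.2 and 37.4 TPM in untreated Hep3B and 12.3 and 6.73 TPM in untreated Huh7, but the exposed Hep3B and resistant Huh7 libraries were apart in the opposite direction. The WNT inhibitor DKK1 was among the abundant genes on the Hep3B side, with 671 and 606 TPM in Hep3B and 99.7 and 86.5 TPM in Huh7.

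Antigen presentation was higher in Hep3B for 9 of 15 tested genes and lower for none (1 under some alternative fits), with a median of 1.71, and 5 of the 15 had passed the filter through Hep3B alone. CD74, the class II invariant chain, had 59.5 and 54.0 TPM in Hep3B and 1.23 and 1.63 TPM in Huh7. HLA-B had 19.5 and 25.1 TPM in Hep3B and 0.183 and 0.343 TPM in Huh7, and the stress ligand MICA had 26.9 and 29.1 TPM in Hep3B and 0.738 and 0.935 TPM in Huh7. Reads of HLA genes map unevenly between alleles and copies, so their levels are uncertain, and beta-2-microglobulin (B2M, named after its values were seen) differed by 0.24. Interferon genes had 8 of 20 higher and 4 lower, or 60% past the threshold against 28.7% of all genes. Of these 20, 3 had passed the filter through Hep3B alone and 3 through Huh7 alone. IFITM3, a membrane protein that blocks virus entry, had 406 and 442 TPM in Hep3B and 26.2 and 23.9 TPM in Huh7, opposite to MX2. Inhibin and activin chain INHBE, a liver-secreted hormone subunit, had 210.2 and 210.2 TPM in Hep3B and 6.86 and 9.48 TPM in Huh7.

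The genes of the study's own question differed unevenly. ABHD6, the monoacylglycerol lipase that WWL70 inhibits, was low in both lines, with 8.23 and 7.93 TPM in Hep3B and 5.99 and 5.57 TPM in Huh7, a log2 fold change of 0.42 ± 0.13 (adjusted p = 0.027) that was not past the fold limit. MGLL, the main enzyme that degrades the same lipid, 2-arachidonoylglycerol, was listed at 0 and 0.076 TPM in Hep3B and at 59.6 and 49.6 TPM in Huh7, a log2 fold change of -5.74 ± 0.15. ABHD12, another hydrolase of that lipid, had 70.3 and 69.0 TPM in Hep3B and 99.8 and 83.6 TPM in Huh7 (log2 fold change -0.39). The enzymes that make it, DAGLA (17.7 and 17.2 TPM in Hep3B and 8.49 and 8.48 TPM in Huh7) and DAGLB (22.6 and 22.5 TPM in Hep3B and 9.54 and 9.72 TPM in Huh7), were on the Hep3B side, with only DAGLB past the threshold. NAPEPLD and ABHD4, of the anandamide pathway, were lower in Hep3B, by 1.38 and 1.26 on the log2 scale, and the anandamide hydrolase FAAH, with 3.50 and 3.32 TPM in Hep3B and 0.964 and 0.251 TPM in Huh7, was higher.

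Mitochondrial fission and fusion genes were among the most alike between the lines, with 1 of 22 higher and 2 lower, or 13.6% past the threshold against 28.7% of all genes. FIS1, the outer membrane fission adaptor, had 50.1 and 51.4 TPM in Hep3B and 88.0 and 95.2 TPM in Huh7 (log2 fold change -0.84 ± 0.07; adjusted p = 0.000133), and passed the fold limit only when libraries were scaled by their median ratio, at -1.02. DRP1 (DNM1L), the fission GTPase, had 47.8 and 42.6 TPM in Hep3B and 75.3 and 75.9 TPM in Huh7 (log2 fold change -0.73 ± 0.08). Its receptor MFF differed by -0.34, and the fusion GTPases MFN1, MFN2 and OPA1 by 0.35, -0.08 and 0.66. Past the threshold were MIEF2, another DRP1 receptor (18.1 and 16.3 TPM in Hep3B and 7.09 and 6.55 TPM in Huh7), the fission protein MTFP1 (16.3 and 13.2 TPM in Hep3B and 40.1 and 39.0 TPM in Huh7) and the inner membrane protease AFG3L2 (35.0 and 39.1 TPM in Hep3B and 127 and 115 TPM in Huh7).

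Lenvatinib blocks VEGF, FGF and PDGF receptors and KIT and RET. The VEGF receptors KDR, FLT1 and FLT4 and the targets KIT and RET did not pass the filter on low values. KDR and RET were listed at 0 in all 4 untreated libraries, and KIT had 0.415 and 0.402 TPM in Hep3B and 0 in both Huh7 libraries. Of the 12 tested genes of the other receptors, the ligands and the FGF19 axis, 6 were higher and 1 lower in Hep3B. FGFR2 had 95.8 and 87.1 TPM in Hep3B and 5.38 and 5.35 TPM in Huh7 (log2 fold change 3.86 ± 0.10), and PDGFRA had 22.7 and 23.3 TPM in Hep3B and 2.29 and 3.13 TPM in Huh7. Their fellow targets FGFR3 (200.99 and 194 TPM in Hep3B and 109.9 and 104 TPM in Huh7), FGFR1 and FGFR4 differed by 0.88, -0.44 and -0.29 and were not past the fold limit. FGFR4, the hepatocyte receptor of FGF19, was the most abundant of the 4 FGF receptors in both lines, with 252 and 263 TPM in Hep3B and 307 and 322 TPM in Huh7. FGF19 itself had 9.24 and 9.08 TPM in Hep3B and 33.5 and 35.5 TPM in Huh7, and its co-receptor KLB had 36.3 and 36.1 TPM in Hep3B and 68.6 and 71.5 TPM in Huh7. Other ligands of the list were higher in Hep3B. VEGFA had 316 and 316 TPM in Hep3B and 60.4 and 64.8 TPM in Huh7 (log2 fold change 2.32 ± 0.06), and PDGFA had 57.4 and 58.2 TPM in Hep3B and 2.43 and 2.04 TPM in Huh7. For VEGFA the exposed Hep3B libraries (55.9 to 286 TPM) and resistant Huh7 libraries (77.3 and 103 TPM) overlapped. Those of PDGFRA also overlapped (1.68 to 13.6 TPM against 0.953 and 3.22 TPM), while FGFR2 and PDGFA stayed apart in the same direction. On the list of ERBB and MET receptors with their ligands, 3 of 12 genes were higher in Hep3B, none was lower and 9 did not pass the threshold. The share past it was 25%, against 28.7% of all genes. The EGF receptor ligand amphiregulin (AREG) was at 96.5 and 91.5 TPM in Hep3B and 2.73 and 2.60 TPM in Huh7, whereas EGFR, named after its values were seen, differed by 0.12. Among MAPK output genes 4 of 20 were higher and 7 lower in Hep3B, or 55% past the threshold against 28.7% of all genes. The largest difference among them was that of the phosphatase DUSP5, with 2.83 and 2.86 TPM in Hep3B and 77.9 and 80.1 TPM in Huh7.

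**Figure D4:**
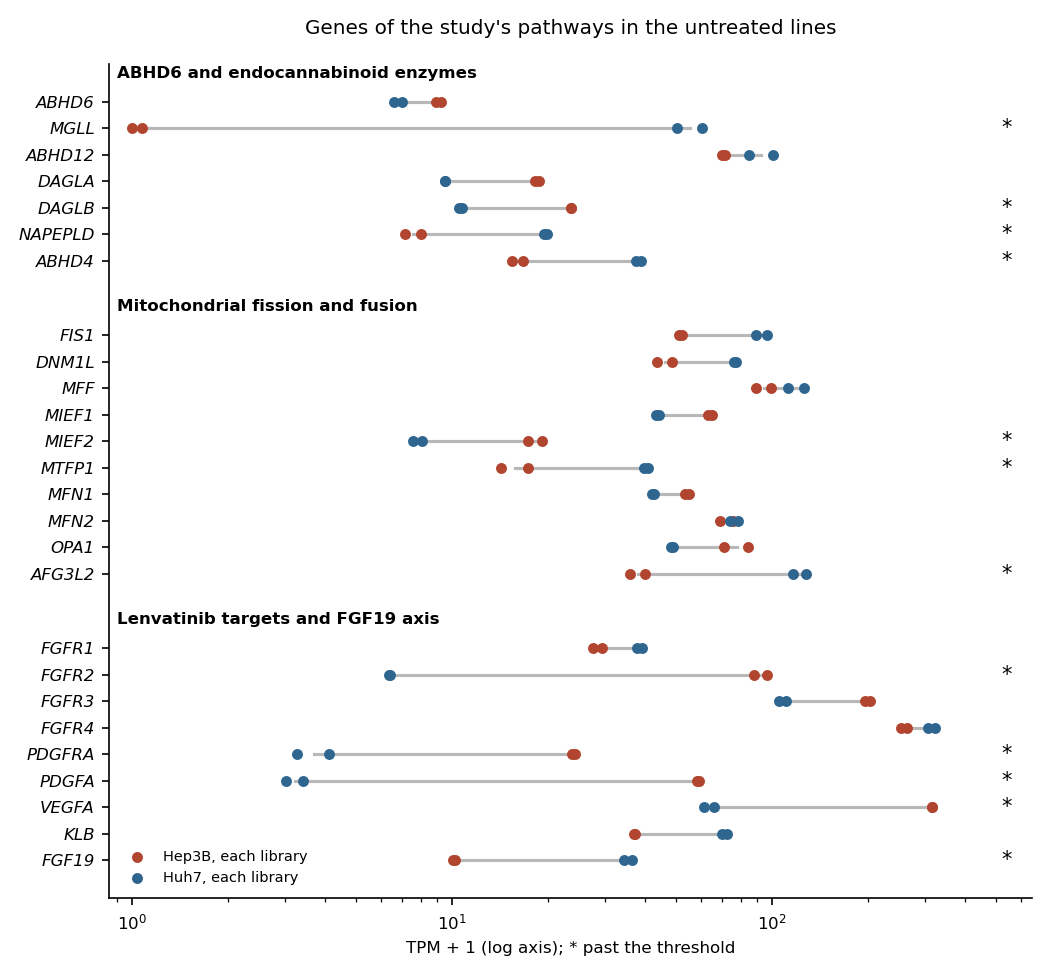
TPM + 1 on a log axis for genes of the endocannabinoid, fission and fusion, and lenvatinib target lists, with each untreated library as a point (Hep3B red, Huh7 blue), a grey line joining the line means and a star at genes past the threshold. MGLL, FGFR2 and PDGFA show the widest gaps, while ABHD6, FIS1, DNM1L and the mitofusins lie close together.

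Apoptosis genes of the BCL2 family were higher in Hep3B for 7 of 21 and lower for 1. Past the threshold were 38.1% of the list, against 28.7% of all genes. Of the 21, 2 had passed the filter through Hep3B alone and 1 through Huh7 alone. The BH3-only gene BMF had 240.4 and 237 TPM in Hep3B and 16.4 and 20.8 TPM in Huh7, and NOXA (PMAIP1), another BH3-only gene, was listed at 0 in both Hep3B libraries and at 6.44 and 7.96 TPM in Huh7. Among drug efflux transporters 4 of 10 were higher and 1 lower, or 50% past the threshold against 28.7% of all genes. ABCG2 was at 1.17 and 2.39 TPM in Hep3B and 9.35 and 8.54 TPM in Huh7.

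Differences were not spread evenly over the genome. On chromosome 6, 30.7% of 684 tested genes were higher in Hep3B and the median log2 fold change lay 0.35 above that of all genes, and on chromosome 19 the shares were 25.8% higher and 3.23% lower of 959 genes, with a median 0.31 above. Chromosome 20 lay lowest, at -0.38 relative to all genes, with 8.05% of 323 genes higher. Chromosomes 13 and 18, where RB1 and AFG3L2 lie, had the largest shares of lower genes, 25.1% of 207 and 22% of 182. Genes with a mean of at least 10 TPM gave medians of 0.38, 0.28 and -0.33 relative to all such genes for chromosomes 6, 19 and 20, and chromosome 18 then lay lowest, at -0.37. Across 12865 genes with an annotated transcript, the Spearman correlation of the log2 fold change with transcript GC content was 0.14 and that with transcript length 0.04. Genes are not independent replicates, and the part of GC content or of gene copy number in the chromosome values was not tested.

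**Figure D5:**
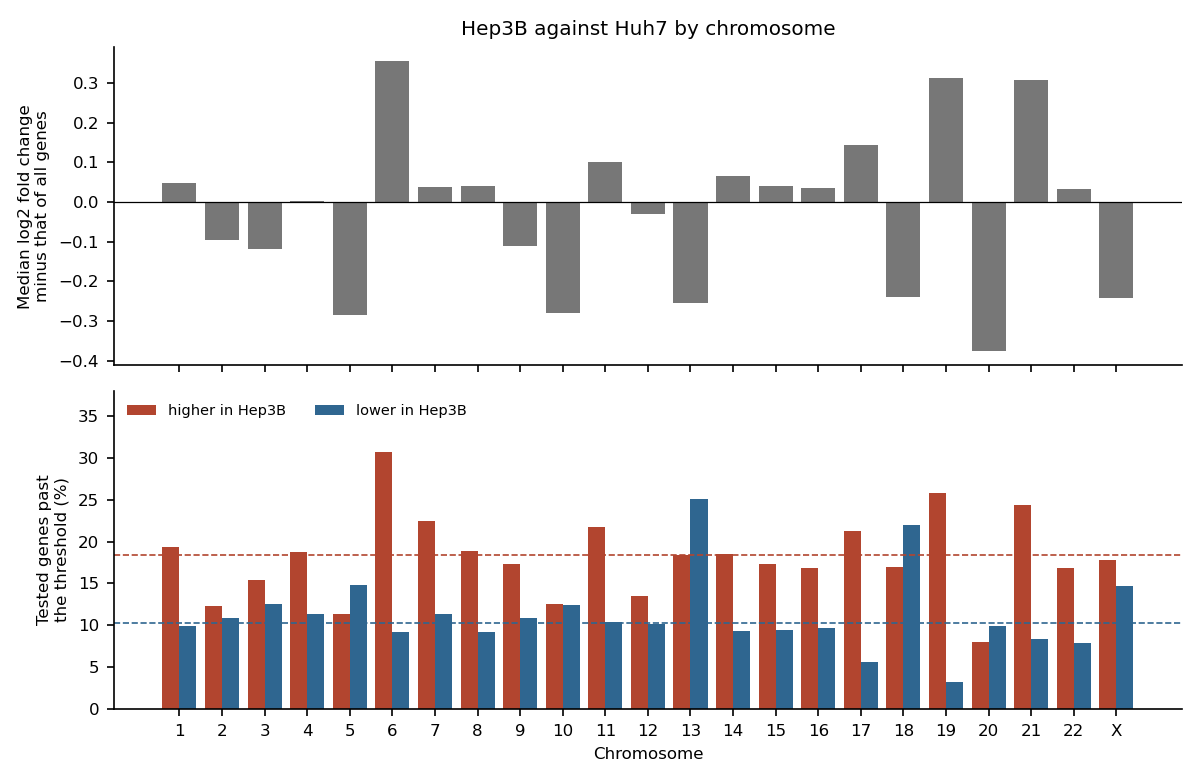
Upper panel, the median log2 fold change (Hep3B over Huh7) of the tested genes of each chromosome minus that of all tested genes; lower panel, the percentage higher (red) and lower (blue) in Hep3B past the threshold, with dashed lines at 18.4% and 10.3% for all genes. Chromosomes 6, 19 and 21 lie highest and chromosome 20 lowest in the upper panel.

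Most differences held outside the untreated cultures. Of the 2379 genes higher in untreated Hep3B, 1441 (60.6%) had all 6 exposed Hep3B libraries above both resistant Huh7 libraries, a pattern seen in 20.6% of all tested genes, and 61 had the opposite order. Of the 1335 lower genes, 1116 (83.6%) had all exposed Hep3B libraries below both resistant Huh7 libraries, against 20.1% of all genes, and 6 had the opposite order. The A1 library of the combination stands apart with a median TPM of 2.96. Without the combination libraries the shares were 82.7% of the higher genes, against 36.4% of all genes, and 87.2% of the lower genes, against 23.2%.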

How the data were processed

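Libraries were made from bead-captured mRNA of Trizol extracts and read on an Illumina instrument, per the labels' protocols. The submitters' processing notes name fastp 0.18.0 and the hg38 build. How reads were aligned, assigned to genes and oriented by strand is not given in the sources used here. TPM values for 20307 Ensembl identifiers in 12 libraries were deposited by the authors. TPM keeps no depth, so no counting interval is given and the number of libraries limits the precision.

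Symbols came from a reference table and GENCODE 29 (19717 identifiers matched), coordinates from GENCODE 29 (GRCh38, 1-based) and promoter windows from RefSeq (GRCh38.p14). Values were analysed as log2(TPM + 1) with limma 3.58.1 in R 4.3.3, an intensity trend and a mean per line on the 4 untreated libraries, with 2 residual and 3.91 prior degrees of freedom. Standard errors of the log2 fold changes had a median of 0.12. An exact permutation of 2 against 2 libraries cannot go below p = 0.333, and was not used for single genes. The fit was tested on simulated data. Transcript length and GC are those of GENCODE 29.

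Members and the 48 gene lists were chosen with earlier results of these data known. Lists are described by counts and medians and were not tested as sets. Genes were named by rule. LDHA, APOA1, NTS, SPINK1, ABHD6, FIS1, DNM1L and RB1 were taken whatever their result. The 12 largest differences in each direction past the threshold were added, with a mean of at least 10 TPM in the higher line and no overlap between lines, as were the 3 largest of each list with at least 3 members past the threshold. Members of the fission and fusion, endocannabinoid and lenvatinib lists with at least 10 TPM in 1 line completed the set. Markers of hepatocytes such as albumin and HNF4A were fixed as a check of the label. A few genes and 1 list that this rule covers are not reported here. Promoters, the genes of the last part and those so described were chosen after their values were seen. Alternatives covered the filter, the pseudocount, the scaling, the fit, the thresholds and leaving out each library.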

Additional observations from a re-analysis of the deposited data

How the results depend on the processing

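Of 147 named genes past the threshold, 117 stayed past it in the same direction under all 18 alternatives. MTFR2, which was not past the threshold (-0.02), changed sign, to 0.11 without Hep3B B1 and to 0.08 without Huh7 A1, and ranged from -0.15 to 0.11 over the 4 leave-one-out fits. CCL15 was the only named gene whose call was lost when a library was left out. The 2379 genes higher and 1335 lower in Hep3B became 1421 and 805 with a pseudocount of 5, 1328 and 777 when tested against a fold limit (limma treat), and 748 and 448 at a log2 limit of 2. Leaving out each library in turn gave 2285 to 2411 higher, 1308 to 1369 lower and 7431 to 7548 genes at an adjusted p under 0.05, and 3433 to 3461 of the 3714 genes were kept. Fitting all 12 libraries together, which shares the larger spread of the drug-exposed libraries, lowered the count at an adjusted p under 0.05 from 9312 to 4560 and kept 3317 of the 3714. Median-ratio scaling moved the median of all genes from 0.17 to 0.00 and gave 1952 higher and 1697 lower, and quantile normalization 1826 and 1728. The on and off rule gave 36 genes on in Hep3B and 44 on in Huh7 with off set under 0.1 TPM, and 53 on in Hep3B with off under 1 and on at least 20 TPM. With the replicate letter as a replicate block the counts were 2384 and 1338 with 9495 genes at an adjusted p under 0.05. The deviations of same-lettered libraries had a correlation of -0.00 over the tested genes. That value cannot show whether they were handled together, which the labels do not say. Of 48 gene lists, the larger side turned under at least 1 of 16 fits for 5: WNT targets, bile acid genes, drug metabolism, and the fatty acid synthesis and oxidation lists. The fatty acid oxidation list turned under 6 fits and each of the others named under 1. Lists with equal sides in the main fit, such as the hepatic transcription factors, could not turn by this count. A change to equal sides was not counted either. The causes of these changes were not tested beyond what each setting changes by construction. Depth is unknown, and values near 0 TPM are the least precise.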

Other observations

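Genes that were off in 1 line also lay side by side. Taking genes under 0.5 TPM in both libraries of 1 line and at least 5 TPM in both of the other, 5 runs of at least 3 such neighbours among the expressed genes were found, a search chosen after the values were seen. The longest by span was on chromosome X (80670854 to 97604997, GRCh38), where BRWD3, HMGN5, SH3BGRL, APOOL, ZNF711, CHM and DIAPH2 averaged from 7.88 to 21.7 TPM in Hep3B. None of the 22 genes of the deposited table in that interval exceeded 0.278 TPM in an untreated Huh7 library, and the 7 genes did not exceed 0.286 TPM in resistant Huh7. CHM, the gene of choroideremia, had 21.1 and 20.9 TPM in Hep3B and 0.076 and 0.091 TPM in Huh7.

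A second run on chromosome X (51743431 to 52192268) held GSPT2, MAGED1, MAGED4B and MAGED4, of which MAGED4 and MAGED4B are near-identical copies. MAGED1 had 179 and 188 TPM in Hep3B and 0.417 and 0.095 TPM in Huh7. On chromosome 15 the imprinted pair SNRPN and SNURF, which share a locus, had 5.27 and 6.09 TPM of SNURF in Hep3B and 0 in both Huh7 libraries. Runs off in Hep3B were HOXC10, HOXC6 and HOXC9 on chromosome 12 and MT1M, MT1F and MT1G on chromosome 16, all listed at 0 in both untreated Hep3B libraries. HOXC10, a patterning factor of the posterior body, had 58.4 and 57.5 TPM in resistant Huh7 and 26.2 and 29.5 TPM in untreated Huh7.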
